A study of Mus musculus with 13 samples.

Results

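The 6 genes described here are expressed in, but not all particular to, the KNDy neurons of the arcuate nucleus. These cells are named for making kisspeptin, neurokinin B and dynorphin. The genes are the peptide precursors Kiss1, Tac2 and Pdyn, the neurokinin B receptor Tacr3, and the steroid receptors Esr1 and Pgr. The genes were taken by symbol, each symbol matched 1 identifier, and they make up 6 of the 55421 identifiers in the count table. All 6 passed the filter on low counts that left 23622 genes for testing.

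RNA was measured in arcuate nucleus tissue, 1 library per mouse, from Agrp-Cre x Klf4-flox knockouts (KO) and control littermates. The KO removes the transcription factor gene Klf4 from cells that express Agrp, so the deletion is aimed at AgRP neurons and not at KNDy neurons. There were 6 KO mice, 3 on chow and 3 on a high-fat diet (HFD), and 7 controls, 3 on chow and 4 on HFD. All mice were collected at 20 weeks of age, and the HFD groups ate that diet for the last 10 weeks. By the sex letter of the titles, each KO group held 2 F mice and a single M mouse, the chow controls held 2 M mice and a single F mouse, and the HFD controls held 2 of each. The sources used here do not give the Cre status of the controls or the estrous stage of the F mice.

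KNDy neurons pace the pulsatile release of gonadotropin-releasing hormone (GnRH). In the usual account, neurokinin B excites these cells through the receptor encoded by Tacr3, dynorphin inhibits them through the kappa opioid receptor, and kisspeptin is their output to GnRH terminals. They also carry the estrogen receptor alpha (Esr1) and the progesterone receptor (Pgr), through which gonadal steroids feed back. In the arcuate nucleus of rodents estrogen is known to lower Kiss1 and Tac2. Pdyn, Esr1 and Pgr are also made by other hypothalamic neurons, whereas arcuate Kiss1 and Tac2 are largely KNDy transcripts.

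Libraries held 34.7 to 68.2 M counts, and levels are counts per M counts of the library total (CPM). Klf4 ranged from 1.58 to 5.95 CPM and did not separate the genotypes. In each of a pair of libraries, a gene stood apart from the other libraries with the same genotype label or sex letter. Hsd11b2 was at 60.7 to 68.5 CPM in the 6 KO libraries and 0.348 to 1.55 CPM in 6 control libraries, but at 63.6 CPM in the library labelled Control_HFD replicate 3. Xist, which is made from the inactive X chromosome of females, ran from 0.471 to 1.20 CPM in M libraries and from 38.2 to 64.5 CPM in 6 F libraries. The library labelled Control_Chow replicate 3 carries the letter F but held 0.674 CPM of Xist. Whether either label is wrong was not tested, and both are called doubted libraries below. The comparisons between groups and letters are also given without 1 or both of them for some of the 6 genes, not for all. Replicate numbers only name libraries.

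The promoters of the 3 peptide genes are shown because 2 of these genes, Kiss1 and Tac2, varied together across libraries and Pdyn did not. Each is the 250 bases before a start site in RefSeq (GRCm38.p6), and capitals mark GGTCA or its complement TGACC, the half-site of an estrogen response element.
Kiss1 promoter, chr1:133326962-133327211, plus strand: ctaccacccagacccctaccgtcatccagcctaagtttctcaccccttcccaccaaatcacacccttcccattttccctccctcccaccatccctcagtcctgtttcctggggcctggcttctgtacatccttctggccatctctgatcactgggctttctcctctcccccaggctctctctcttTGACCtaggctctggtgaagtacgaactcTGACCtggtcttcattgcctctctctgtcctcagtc
Tac2 promoter, chr10:127724228-127724477, plus strand: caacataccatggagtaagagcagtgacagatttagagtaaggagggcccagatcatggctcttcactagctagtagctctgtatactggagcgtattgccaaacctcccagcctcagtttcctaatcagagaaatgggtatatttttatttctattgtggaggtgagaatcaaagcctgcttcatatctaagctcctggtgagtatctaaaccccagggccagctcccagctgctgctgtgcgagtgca
Pdyn promoter, chr2:129699939-129700188, minus strand: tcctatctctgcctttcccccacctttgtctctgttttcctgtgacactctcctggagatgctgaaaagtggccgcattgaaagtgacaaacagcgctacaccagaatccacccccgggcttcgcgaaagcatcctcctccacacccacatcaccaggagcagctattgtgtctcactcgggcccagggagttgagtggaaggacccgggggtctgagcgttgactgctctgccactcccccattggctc

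The Kiss1 promoter held 2 half-sites, and the windows of Tac2 and Pdyn held none. GGTCA on either strand occurs in 35.2% of 32851 RefSeq promoters of this length, so its presence is common. The full element, GGTCA and TGACC set 3 bases apart, occurred in none of the 3 windows and in 0.1% of all promoters. The AP-1 motif TGANTCA (6.7% of promoters) and the GC box GGGCGG (32.7%) were also absent from these 3 windows. The CRE half-site CGTCA, found in 17.8% of promoters, occurred once in the Kiss1 window, where it is left in lower case. These matches are descriptions of letters and not of binding. RefSeq gives Pdyn 2 start sites, of which the upstream one is shown, and the Kiss1 start lies inside the longer gene span of GENCODE M21.

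Kiss1 (ENSMUSG00000116158.1, chromosome 1, 133321875 to 133329901, plus strand, GRCm38) encodes kisspeptin. It was the most variable of the 6 genes, from 2.10 to 29.8 CPM, a 14.2-fold range. The KO libraries on HFD held 6.89, 9.17 and 29.8 CPM, and those labelled control on HFD held 5.87, 12.7, 22.3 and 5.16 CPM. On chow, KO libraries held 7.76, 20.0 and 19.6 CPM and controls 5.56, 12.04 and 2.10 CPM. The highest library was KO_HFD replicate 3 and the lowest was Control_Chow replicate 3, and every pair of groups overlapped. The counts behind these values ran from 78 to 1491 per library. The Kiss1 model overlaps Golt1a and 2 identifiers named Gm28040 on the same strand. Counts of the Gm28040 identifiers were 0.962 to 1.12 times those of Kiss1 in each library, so reads of these models cannot be told apart and the Kiss1 level is uncertain. Golt1a stayed at 0.177 to 0.662 CPM.

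Tac2 (ENSMUSG00000025400.11, chromosome 10, 127724478 to 127731768, plus strand) encodes neurokinin B in the mouse. It ranged 6.93-fold, from 19.9 to 138 CPM. KO libraries on HFD held 44.3, 53.0 and 138 CPM, and those labelled control on HFD held 40.5, 51.3, 104 and 28.5 CPM. On chow the KO libraries held 31.9, 96.6 and 82.2 CPM against 21.05, 34.9 and 19.9 CPM in controls. The library order was close to that of Kiss1, with KO_HFD replicate 3 again highest and Control_Chow replicate 3 again lowest. On chow, 2 of the 3 KO libraries lay above all controls and replicate 1 lay among them.

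Pdyn (ENSMUSG00000027400.11, chromosome 2, 129686565 to 129699844, minus strand) encodes prodynorphin. Its 2.41-fold range was much narrower. KO libraries on HFD held 369, 299 and 286 CPM, and controls on HFD 294, 290.0, 196 and 251 CPM. On chow the KO libraries held 216, 226 and 263 CPM and the controls 289, 153 and 220.1 CPM. Its library order did not follow that of Kiss1 and Tac2. KO_HFD replicate 3, highest for both, held a Pdyn level above the median of 263 CPM over all libraries. Control_HFD replicate 3, second highest for both of those genes, had the second lowest Pdyn.

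Tacr3 (ENSMUSG00000028172.5, chromosome 3, 134829007 to 134934579, plus strand) encodes the neurokinin B receptor. It ranged from 6.68 to 18.7 CPM. KO libraries on HFD held 6.73, 8.83 and 13.2 CPM, and controls on HFD 6.68, 7.77, 14.5 and 8.43 CPM. On chow the KO libraries held 9.08, 13.2 and 18.7 CPM and the controls 8.61, 11.5 and 12.7 CPM. In each of the 4 groups the M libraries were the lowest.

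Esr1 (ENSMUSG00000019768.16, chromosome 10, 4611593 to 5005614, plus strand) encodes estrogen receptor alpha, and ranged 3.93-fold. KO libraries on HFD held 25.9, 37.1 and 69.0 CPM, and controls on HFD 29.5, 43.7, 56.4 and 82.6 CPM. On chow the KO libraries held 23.1, 48.4 and 64.8 CPM and the controls 26.0, 32.6 and 21.05 CPM. The M libraries were the lowest in 3 groups, and in the chow controls the lowest was replicate 3, the library with an F letter and an M-like Xist level. Pgr (ENSMUSG00000031870.16, chromosome 9, 8899833 to 8968611, plus strand) encodes the progesterone receptor and was the steadiest gene, with a 1.77-fold range. KO libraries on HFD held 22.6, 16.4 and 23.8 CPM, and controls on HFD 19.8, 19.2, 19.1 and 13.8 CPM. On chow the KO libraries held 16.1, 16.8 and 13.5 CPM and the controls 16.5, 19.3 and 15.6 CPM.

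**Figure D1:**
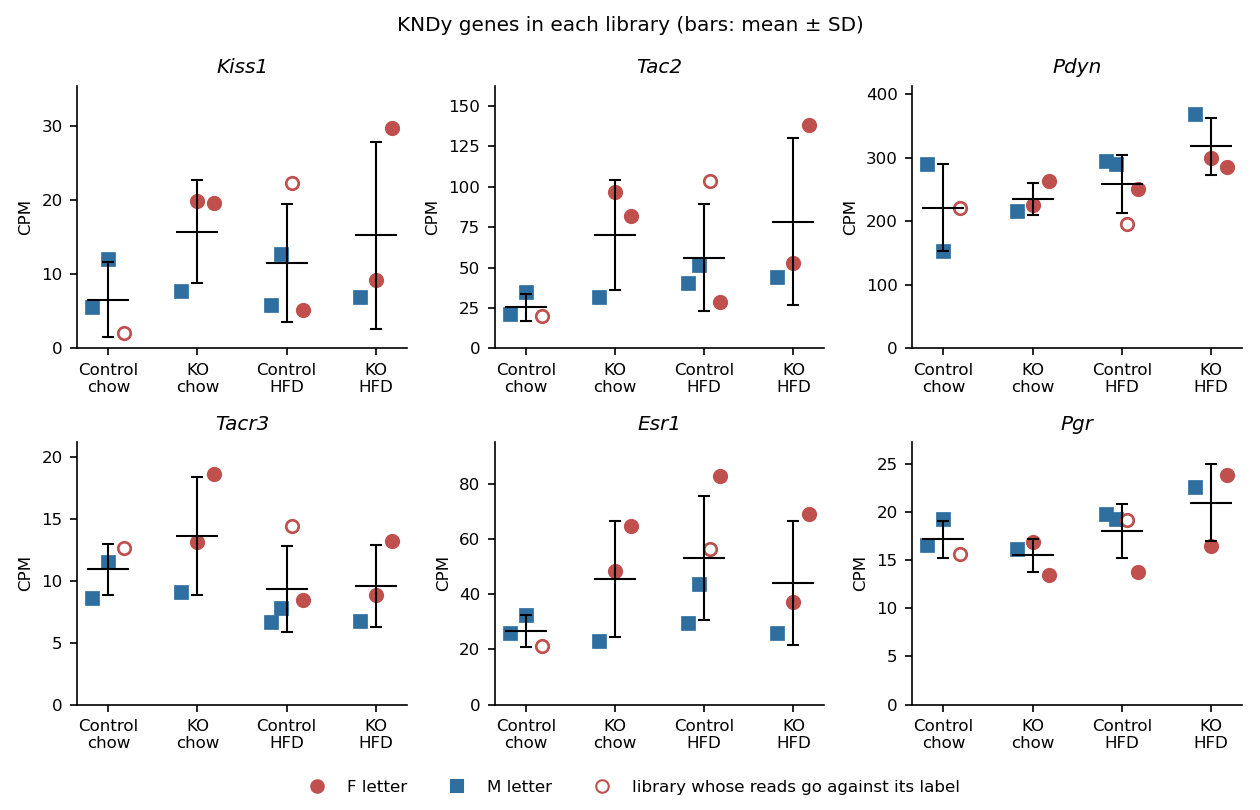
Level of each gene in CPM (linear axis from 0) for the 13 libraries in 4 groups, with red circles for the F letter, blue squares for the M letter, open symbols for Control_HFD replicate 3 and Control_Chow replicate 3, and black bars for the mean ± SD. Kiss1 and Tac2 spread 14.2-fold and 6.93-fold over the libraries, whereas Pgr spreads 1.77-fold.

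Group means followed these spreads. Mean Kiss1 was 15.8 ± 6.94 CPM (SD, n = 3) in KO on chow, 15.3 ± 12.6 (n = 3) in KO on HFD, 11.5 ± 7.94 (n = 4) in controls on HFD and 6.57 ± 5.05 (n = 3) in controls on chow. Mean Tac2 was 78.5 ± 51.9 CPM in KO on HFD, 70.3 ± 34.0 in KO on chow, 56.1 ± 33.2 in controls on HFD and 25.3 ± 8.33 in controls on chow. Controls on chow had the lowest mean of both genes, and neighbouring groups in either order overlapped. Mean Pdyn ran from 221 ± 68.1 CPM in controls on chow through 235 ± 24.9 and 258 ± 45.6 to 318 ± 44.8 in KO on HFD. Mean Tacr3 ran from 9.34 ± 3.49 CPM in controls on HFD to 13.6 ± 4.80 in KO on chow. Mean Esr1 ran from 26.5 ± 5.79 CPM in controls on chow to 53.0 ± 22.6 in controls on HFD. Mean Pgr ran from 15.5 ± 1.76 CPM in KO on chow to 20.96 ± 3.97 in KO on HFD. For these 4 genes, too, neighbouring groups overlapped.

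Levels of different genes were compared as deposited RPKM, reads per kilobase and per M reads counted. Pdyn stood first with a median of 91.1 RPKM, Tac2 next with 32.1 and Kiss1 after it with 11.8. The receptors were far lower, with medians of 2.72 RPKM for Esr1, 2.41 for Tacr3 and 1.97 for Pgr. The order of Tac2 and Kiss1 was the same in every library, and that of Pdyn and Tac2 in most. Tac2 exceeded Kiss1, and Kiss1 exceeded Esr1, in 13 of 13 libraries, and Pdyn exceeded Tac2 in 11 of 13. Esr1 exceeded Tacr3 in 8 of 13, so those genes did not have a fixed order, and Tacr3 exceeded Pgr in 10 of 13. The RPKM ratio of Tac2 to Kiss1 lay between 1.64 and 5.37 with a median of 2.64, a 3.27-fold spread. The ratio of Pdyn to Kiss1 lay between 2.37 and 28.3, an 11.9-fold spread.

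Kiss1 and Tac2 varied together from library to library. On log2(CPM + 1) over the 13 libraries, Pearson's r was 0.925 and Spearman's rho 0.923. The permutation p was 1e-05 for r, the smallest that 100000 permutations give, and 5e-05 for rho, with Benjamini-Hochberg adjusted values over 15 gene pairs of 0.00015 and 0.00075. The relation did not rest on extreme libraries or on the groups. Without the 2 libraries farthest from the median of Kiss1, r was 0.888. It was 0.923 on deviations from the group means, 0.972 within HFD (n = 7), 0.909 within chow (n = 6), and 0.906 without both doubted libraries. Among 15849 other genes, 4 had a higher r with Kiss1 than Tac2 did, or 0.0252% of them. Predicted genes, such as the Gm28040 identifiers whose reads cannot be told apart from those of Kiss1, were not left out of this count. In bulk tissue, fewer KNDy cells in a sample and less RNA per KNDy cell cannot be told apart.

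No other pair passed the adjustment. Esr1 had r = 0.64 with Kiss1 and 0.65 with Tac2, both with an adjusted permutation p of 0.0975. These Esr1 relations differed between diets, with r of 0.88 and 0.92 within chow but 0.40 and 0.28 within HFD, and the difference was not tested. Tacr3 had r = 0.54 with Kiss1 and 0.51 with Tac2, with adjusted permutation p of 0.199 for both. On deviations from the group means Tacr3 was more closely tied to Tac2 (r = 0.80, permutation p = 0.00122) and to Esr1 (r = 0.71, permutation p = 0.00728), values that are not adjusted. Differences between the sex letters stay in these deviations. In levels, Tacr3 had r = 0.43 with Esr1, with an adjusted permutation p of 0.302. Without the 2 libraries farthest from the median of Tac2, its level r with Tacr3 was 0.36. Likewise, r was 0.21 for Tacr3 with Esr1 without the 2 farthest for Tacr3. For Kiss1 with Tacr3 it rose to 0.83 without the 2 farthest for Kiss1. Pdyn, the remaining KNDy peptide, had r = -0.13 with Kiss1 (adjusted permutation p = 0.787) and 0.047 with Tac2 (0.942). Of the other genes, 62.7% had a higher r with Kiss1 than Pdyn did. Pgr had r between -0.27 and 0.36 with the other 5 genes.

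**Figure D2:**
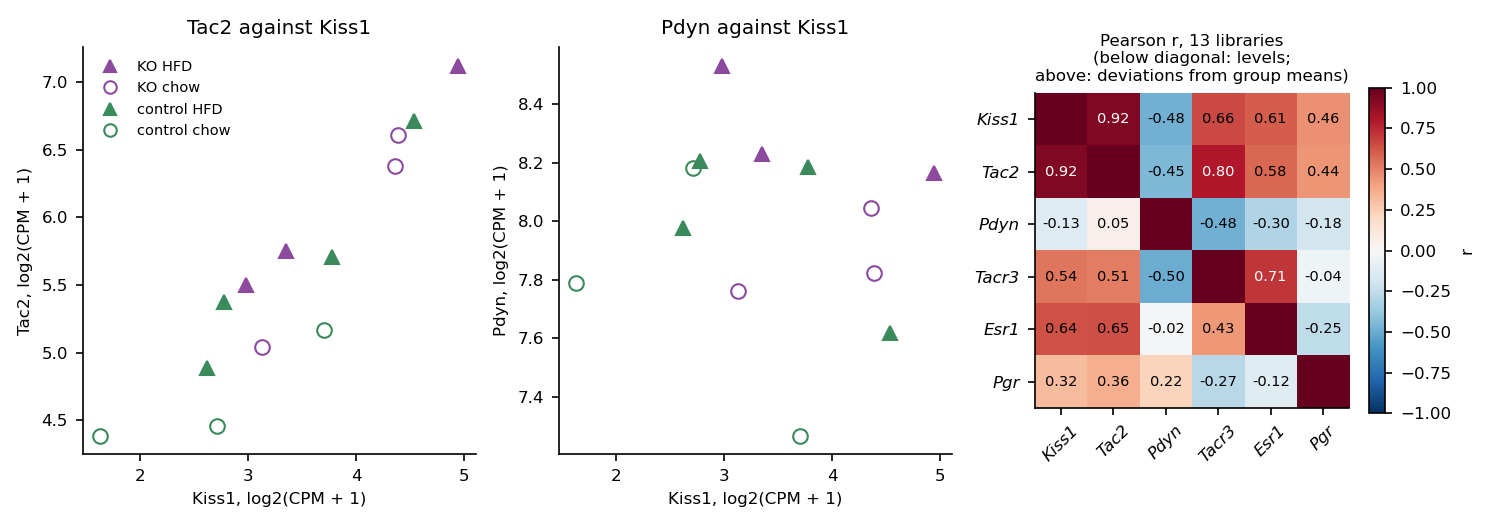
Left and middle, Tac2 and Pdyn against Kiss1 on log2(CPM + 1), 1 symbol per library, coloured by labelled genotype with triangles for HFD and open circles for chow. Right, Pearson's r of every pair over 13 libraries, with levels below the diagonal and deviations from the group means above it. Tac2 follows Kiss1 (r = 0.925) and Pdyn does not (r = -0.13).

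Genes with the most similar profiles were sought among 15850 genes with a mean log2 CPM of at least 1, by Pearson's r of log2 CPM over the 13 libraries. Predicted genes, pseudogenes and ribosomal protein genes were passed over in the ranking. For Kiss1 the closest genes were then Olfm2 (r = 0.94), Prok2 (0.92) and Tac2 (0.91). For Tac2 they were Inhbb (0.94), Prok2 (0.92) and Kiss1 (0.91). Prok2, a secreted prokineticin known as an output signal of the circadian clock, was thus near both peptides, at 0.701 to 7.75 CPM. Inhbb encodes the inhibin beta B subunit and ran from 5.23 to 21.9 CPM. Esr1 was closest to the histone genes Hist1h2be (0.92) and Hist1h1c (0.89) and to Socs2 (0.90), an inhibitor of cytokine signalling. Pgr was closest to Mogat1 (0.86), Greb1 (0.81) and Ikzf2 (0.79), of which Greb1 is a known target of the estrogen receptor. Pdyn was closest to Klf13 (0.87), Tradd (0.85) and Galnt17 (0.85), and Tacr3 to Ammecr1l (0.88), Pex13 (0.78) and Mthfd1 (0.78). These are the top values of a search over many genes and carry no test.

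Tacr3 and Esr1 had the smallest p values of the members for sex letter, while by size the estimates were 0.76 for Esr1, 0.66 for Tac2 and 0.63 for Tacr3 on the log2 scale. Tacr3 held 6.73, 6.68 and 7.77 CPM in the M libraries on HFD and 8.83, 13.2, 14.5 and 8.43 CPM in the F libraries on HFD. On chow it held 9.08, 8.61 and 11.5 CPM in M and 13.2, 18.7 and 12.7 CPM in F. The letters did not overlap on either diet, with F higher on both. Of all tested genes, 5.35% did not overlap between letters on HFD in either direction, 7.48% on chow, and 0.0804% had F higher without overlap on both. The log2 fold change of F against M was 0.63 ± 0.16 (SE) in edgeR's quasi-likelihood fit, with an unadjusted p of 0.00176 and an adjusted p of 1.00 over all genes. On log2(CPM + 1), the exact permutation test (two-sided) gave a difference of 0.53 with p = 0.0175 over all libraries. With letters permuted within groups the exact test gave 0.55 with p = 0.0185, where the smallest possible p is 0.00617. Within groups the exact p was 0.0370 without Control_Chow replicate 3, 0.0247 without Control_HFD replicate 3 and 0.0741 without both, so that test no longer passed 0.05 without both. Leaving out libraries leaves fewer arrangements, so the smallest possible p within groups rises. With letters permuted over the 11 remaining libraries the exact p was 0.0476, and the letters still did not overlap on either diet. The edgeR log2 fold change without both was 0.58 ± 0.18 (SE), with an adjusted p of 0.313. DESeq2, run on all 13 libraries, gave an adjusted p of 0.0662, the closest any member came to the threshold in that tool. Tacr3 did not pass the threshold over all genes by any tool run.

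Esr1 had a median of 27.7 CPM in the 6 M libraries (lowest 23.1, highest 43.7) and of 56.4 CPM in the 7 F libraries (lowest 21.05, highest 82.6). The edgeR log2 fold change was 0.76 ± 0.27 (SE), with an unadjusted p of 0.0178 and an adjusted p of 1.00. Its lowest F library was the one with M-like Xist. Without Control_Chow replicate 3 the F libraries lay between 37.1 and 82.6 CPM, and the edgeR log2 fold change was 1.05 ± 0.20 with an adjusted p of 0.370. The exact permutation p of Esr1 was 0.0291 with all libraries and 0.00433 without that library. Permuted within groups, the exact p was 0.0679 with it and 0.0185 without it. Without it the chow controls hold no F library and leave the within-group test, so the smallest possible p is higher. Tac2 had an exact permutation p of 0.115 with all libraries and 0.0260 without Control_Chow replicate 3, where its difference was 1.03. For Kiss1 the exact permutation p values were 0.347 and 0.0584. Without Control_Chow replicate 3 the F libraries on chow were all KO, so tests that permute letters across groups mix letter with genotype there. Permuted within groups, the exact permutation p of Tac2 was 0.222 with all libraries and 0.185 without Control_Chow replicate 3. For Kiss1 the exact permutation p within groups was 0.636 with all libraries and 0.167 without Control_Chow replicate 3.

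Some marker lists of neighbouring tissue also leaned to F, with 0 of their genes past the edgeR threshold. The 7 tested genes of the anterior pituitary and pars tuberalis list had a median log2 fold change of 0.90 for F against M, with 6 of 7 positive and 2 higher at an unadjusted edgeR p under 0.05. The 5 markers of the paraventricular, supraoptic and suprachiasmatic nuclei had a median of 0.79, with 5 of 5 positive and 1 at an unadjusted edgeR p under 0.05. Other neighbouring lists had medians of 0.14 (dorsomedial and lateral hypothalamus), -0.072 (ventromedial nucleus) and -0.13 (mammillary and premammillary). The summed pituitary markers ran from 3.01 to 326 CPM in F with a median of 4.94, and from 1.02 to 95.4 CPM in M with a median of 4.08. Control_HFD replicate 4 and KO_HFD replicate 3, the libraries with the highest Esr1, also had the highest pituitary sums, 205 and 326 CPM. Over 13 libraries Esr1 had r = 0.54 and rho = 0.55 with the mean log2(CPM + 1) of the pituitary markers. The adjusted permutation p was 0.220 for r and 0.175 for rho, and without those 2 libraries r was 0.12. The part of these tissues in the Esr1 difference was not tested.

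Members were called in 0 of 6 cases for F against M by edgeR at an adjusted p of 0.05, as were 0% of all tested genes. DESeq2 and limma voom also called 0 members. At an unadjusted p under 0.05 edgeR had 2 members higher in F, Tacr3 and Esr1, where 3.44% of all genes passed in either direction. Without Control_Chow replicate 3 edgeR called 11 genes and without both doubted libraries 15, with 0 members among them in either case. The median log2 fold change of the 6 members was 0.58, against -0.0019 for all genes. It fell to 0.21 without Control_HFD replicate 3, 0.34 without KO_Chow replicate 1, 0.37 without KO_HFD replicate 1 and 0.37 without KO_HFD replicate 3. It rose to 0.82 without Control_Chow replicate 3, 0.68 without Control_HFD replicate 2 and 0.68 without Control_HFD replicate 4. Without both doubted libraries it was 0.63. Pgr (-0.18 ± 0.10) and Pdyn (-0.17 ± 0.15) had the opposite sign to the other 4. Genes with a smaller p than Tacr3 made up 0.144% of those tested, and for Esr1 1.1%. With all libraries 54 exact tests were run on the 6 genes, the same 54 were repeated in each of 4 other settings, and none of these p values is adjusted.

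**Figure D3:**
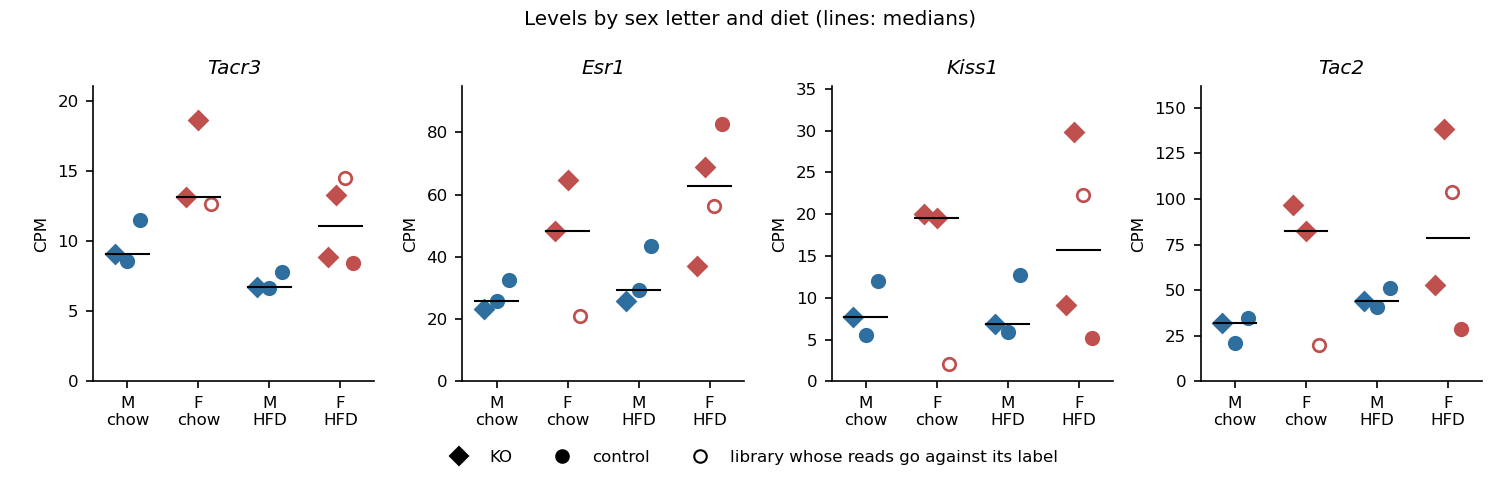
CPM (linear axis from 0) of Tacr3, Esr1, Kiss1 and Tac2 by sex letter and diet, with diamonds for KO, circles for control, lines for medians and open symbols for Control_HFD replicate 3 and Control_Chow replicate 3. Tacr3 does not overlap between letters on either diet, and the low F library of Esr1 on chow, at 21.05 CPM, is Control_Chow replicate 3.

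Deletion of Klf4 in Agrp-expressing cells was compared with control on each diet. On HFD edgeR called 0 of 6 members, as it called 0% of all genes, and 0 members had an unadjusted p under 0.05 where 1.66% of all genes did. Log2 fold changes on HFD were 0.26 ± 0.74 (SE) for Kiss1, 0.32 ± 0.50 for Tac2, 0.33 ± 0.20 for Pdyn, -0.07 ± 0.21 for Tacr3, -0.40 ± 0.33 for Esr1 and 0.25 ± 0.14 for Pgr. The errors of Kiss1 and Tac2 were larger than their differences. Without Control_HFD replicate 3, whose Hsd11b2 level goes with the KO libraries, the HFD estimates were 0.89 ± 0.86 for Kiss1, 0.74 ± 0.55 for Tac2, 0.22 ± 0.21 for Pdyn, 0.11 ± 0.20 for Tacr3, -0.49 ± 0.37 for Esr1 and 0.33 ± 0.14 for Pgr. Pgr then had an unadjusted edgeR p of 0.0452, as 335 of 23599 genes had one under 0.05, and an adjusted p of 1.00. Without both doubted libraries Esr1 was the member with an unadjusted edgeR p under 0.05 on HFD, at -0.59 ± 0.23. Its unadjusted edgeR p was then 0.0320 and its adjusted p 1.00. On chow 0 of 6 members were called, with 0% of all genes, and 0 members had an unadjusted p under 0.05 against 12.9% of all genes. The largest estimates on chow were those of Tac2, 1.07 ± 0.58 with an edgeR adjusted p of 0.467, and Kiss1, 0.88 ± 0.88 with an adjusted p of 0.711. Without Control_Chow replicate 3 they were 0.57 ± 0.63 and 0.03 ± 0.76, and Esr1 turned from 0.33 to -0.18 ± 0.30. Pdyn (0.13 ± 0.22), Tacr3 (0.05 ± 0.23), Esr1 (0.33 ± 0.38) and Pgr (-0.10 ± 0.15) were each smaller than their standard errors.

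Over both diets 0 of 6 members were called, with 0% of all genes, and 0 members had an unadjusted p under 0.05, against 9.5% of all genes. Tac2 had the largest estimate, 0.69 ± 0.40 (SE), with an edgeR adjusted p of 0.577. An exact permutation test within diets gave Tac2 a difference of 0.90 with p = 0.07. Without Control_HFD replicate 3 that difference was 1.07 with exact p = 0.025, and without both libraries in doubt it was 1.00 with exact p = 0.06. In edgeR, Tac2 had 0.99 ± 0.43 without Control_HFD replicate 3, with an unadjusted p of 0.0472 and an adjusted p of 0.606, and 0.67 ± 0.48 without both. Kiss1 had 0.57 ± 0.60 in edgeR and an exact permutation p of 0.156 within diets. With 1 library left out, its edgeR estimate ran from 0.071 to 1.04, and that of Pdyn from 0.13 to 0.32. Tacr3 (-0.01 ± 0.16), Esr1 (-0.03 ± 0.26) and Pgr (0.07 ± 0.10) were near 0, and Pdyn had 0.23 ± 0.15. The median of the 6 members was 0.15, against -0.00052 for all genes, and 0.076 without Control_Chow replicate 3.

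HFD was compared with chow within each genotype. In controls 0 of 6 members were called, with 0% of all genes, and 0 members had an unadjusted p under 0.05, against 8.06% of all genes. Estimates in controls were 0.93 ± 0.52 (SE) for Tac2, 0.71 ± 0.35 for Esr1, 0.56 ± 0.78 for Kiss1, 0.23 ± 0.20 for Pdyn, 0.09 ± 0.14 for Pgr and -0.38 ± 0.21 for Tacr3. Without both libraries in doubt, Tac2 was at 0.39 ± 0.56, Esr1 at 0.33 ± 0.26 and Kiss1 at -0.30 ± 0.69. Tacr3 was then at -0.58 ± 0.23, with an unadjusted edgeR p of 0.0309 and an adjusted p of 0.923. In KO 0 of 6 members were called, with 0% of all genes, and 2 members had an unadjusted edgeR p under 0.05, against 4.05% of all genes. These were Pgr, higher on HFD by 0.43 ± 0.15 with an edgeR p of 0.0118, and Tacr3, lower at -0.50 ± 0.22 with an edgeR p of 0.0412, both with an adjusted p of 0.984. Tacr3 had a negative estimate for HFD in both genotypes. Pdyn in KO held 286 to 369 CPM on HFD and 216 to 263 CPM on chow without overlap, as did 8.57% of all genes in either direction. Its exact permutation p was 0.1, the smallest that 3 against 3 libraries allow. Summed pituitary markers had medians of 95.4 CPM in KO on HFD and 47.8 in controls on HFD, while the chow medians were 4.23 for KO and 3.37 for controls, and their part in the diet estimates was not tested. Titles number the chow and HFD mice from separate ranges, and diet cannot be told apart from anything that follows those numbers.

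The genotype by diet interaction called 0 of 6 members, with 0% of all genes, and 0 members had an unadjusted p under 0.05, against 5.1% of all genes. Estimates were -0.62 ± 1.09 (SE) for Kiss1, -0.75 ± 0.74 for Tac2, 0.20 ± 0.29 for Pdyn, -0.12 ± 0.30 for Tacr3, -0.74 ± 0.50 for Esr1 and 0.35 ± 0.20 for Pgr. All edgeR adjusted p-values were at least 0.909. Without both doubted libraries the estimates were 0.23 ± 0.92 for Kiss1, -0.20 ± 0.74 for Tac2 and -0.34 ± 0.35 for Esr1, with 0 members at an unadjusted p under 0.05. These comparisons share control or KO libraries, so they are not independent of each other. DESeq2 and limma voom called 0 members in each of the 7 comparisons.

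**Figure D4:**
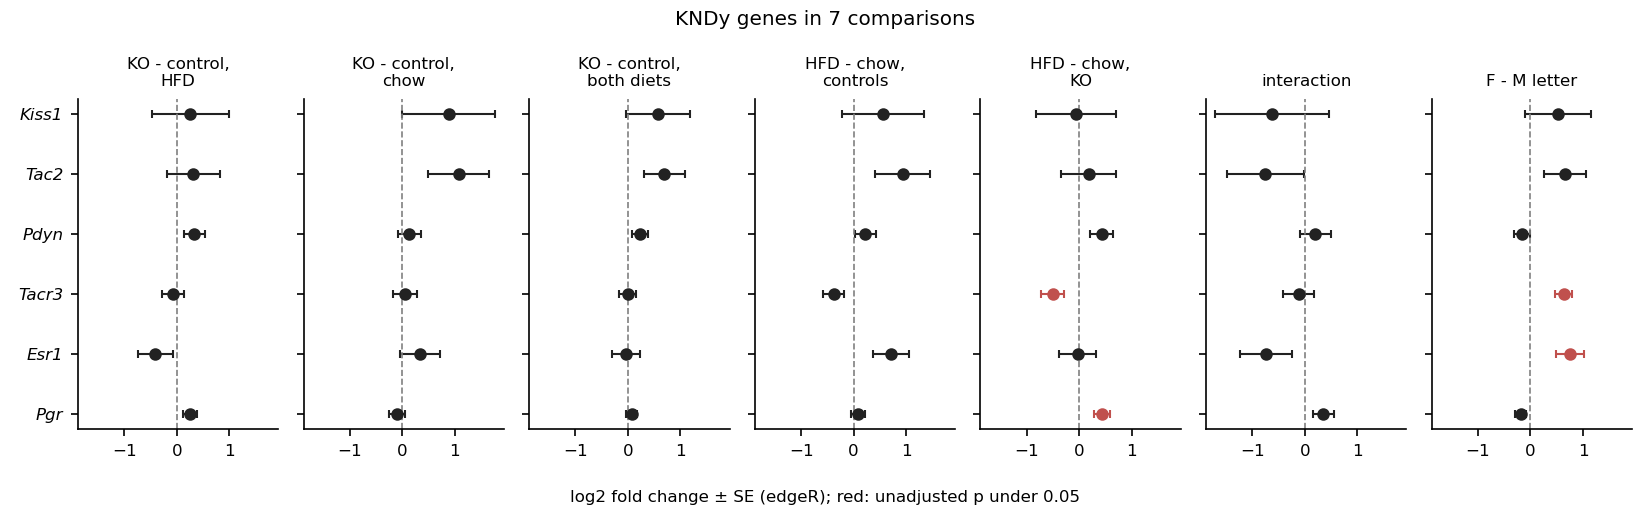
Log2 fold change ± SE of each gene in the 7 edgeR comparisons, all on 1 scale, with red for an unadjusted p under 0.05. Kiss1 and Tac2 have the widest errors, up to 1.09 and 0.74, and the 4 red points are Tacr3 and Pgr for HFD in KO and Tacr3 and Esr1 for sex letter.

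The rest of the KNDy circuit was described from gene lists. Of 12 genes of kisspeptin, tachykinin and GnRH signalling, 10 were tested and 0 passed the edgeR threshold in any comparison. Over both diets the list had a median log2 fold change of -0.20 for KO against control. Kiss1r, the kisspeptin receptor, had -0.19 ± 0.12 (SE), and Gnrh1, the GnRH precursor, had 0.81 ± 0.64. Tacr1, the substance P receptor, had -0.27 ± 0.12 for F against M with an unadjusted edgeR p of 0.038. For this list no gene had an unadjusted p under 0.05 for genotype over both diets. Of 7 opioid genes tested, 0 passed. Oprk1, the kappa receptor for dynorphin, had -0.31 ± 0.17 for genotype. Pomc, precursor of beta-endorphin and of melanocortins, had 1.04 ± 0.41 with an edgeR adjusted p of 0.501, and its summed list of POMC neuron markers ran from 397 to 2303 CPM.

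Of 8 other nuclear steroid receptors and related genes, 7 were tested and 0 passed. Esr2, estrogen receptor beta, was far scarcer than Esr1 and had a log2 fold change of 0.63 ± 0.27 (SE) for F against M with an unadjusted edgeR p of 0.0368. Its F libraries lay between 0.739 and 2.32 CPM and its M libraries between 0.547 and 1.09 CPM. Of 11 steroid conversion genes, 9 were tested and 0 passed. Cyp19a1, the aromatase that makes estrogens from androgens, was at 0.0534 to 1.10 CPM in F and 0.965 to 2.79 CPM in M, with a log2 fold change of -1.83 ± 0.58 and an unadjusted edgeR p of 0.00959. The letters barely overlapped for this gene.

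Of 10 genes reported to respond to estrogen, 9 were tested and 0 passed. The genes with the smallest p for F against M had opposite signs. Cckar, a cholecystokinin receptor, had 0.35 ± 0.10 (SE), with F libraries at 9.33 to 19.5 CPM and M libraries at 8.23 to 15.04 CPM. Greb1, the gene with a Pgr-like profile, had -1.10 ± 0.37, with medians of 5.64 CPM in F and 12.3 CPM in M. Gal, the galanin precursor, had 0.70 ± 0.19 for KO against control over both diets, with an edgeR adjusted p of 0.437. Of 12 genes reported in arcuate Kiss1 neurons, all 12 were tested and 0 passed. Inhbb, the gene closest to Tac2, had 0.62 ± 0.26 for genotype and 0.59 ± 0.26 for F against M, with unadjusted edgeR p values of 0.0372 and 0.049. Nr5a2, a nuclear receptor, had 0.85 ± 0.48 for genotype.

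Markers of other cells were compared with the KNDy genes library by library, using the mean log2(CPM + 1) of each list. Summed CPM is given only to describe marker levels. The summed level of 6 ventromedial nucleus markers ran from 169 to 622 CPM, with medians of 482 in KO on HFD, 434 in controls on HFD, 528 in controls on chow and 292 in KO on chow. Kiss1 had r = -0.71 and rho = -0.80 with the mean of the ventromedial markers over 13 libraries. The adjusted permutation p over 30 relations was 0.101 for r and 0.0471 for rho. Without the 2 libraries farthest from the median Kiss1 had r = -0.87, and on deviations from the group means -0.82. Tac2 had r = -0.50 with the same markers, with an adjusted permutation p of 0.254. By rank, libraries with more ventromedial marker RNA thus tended to have less Kiss1, a relation examined after seeing the data.

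The summed level of 4 AgRP neuron markers ran from 37.6 to 265 CPM, with medians of 168 in KO on HFD, 84.3 in controls on HFD, 49.3 in controls on chow and 201 in KO on chow. Kiss1 and Tac2 had r = 0.65 and 0.67 with the mean log2(CPM + 1) of these markers, each with an adjusted permutation p of 0.101. Within chow r was 0.92 for Kiss1 and 0.996 for Tac2, and within HFD 0.35 and 0.28. Controls on chow thus had the lowest median of AgRP markers as well as the lowest mean Kiss1 and Tac2. Tanycyte markers had r = 0.66 with Kiss1 and 0.60 with Tac2, and Pdyn had its highest r with POMC neuron markers, 0.65. None of these passed the adjustment. Each gene of these marker lists had counts in each group, whereas the pituitary markers Prl and Pou1f1 had no count in the controls on chow, and the part of tissue content in the differences of the KNDy genes was not tested.

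**Figure D5:**
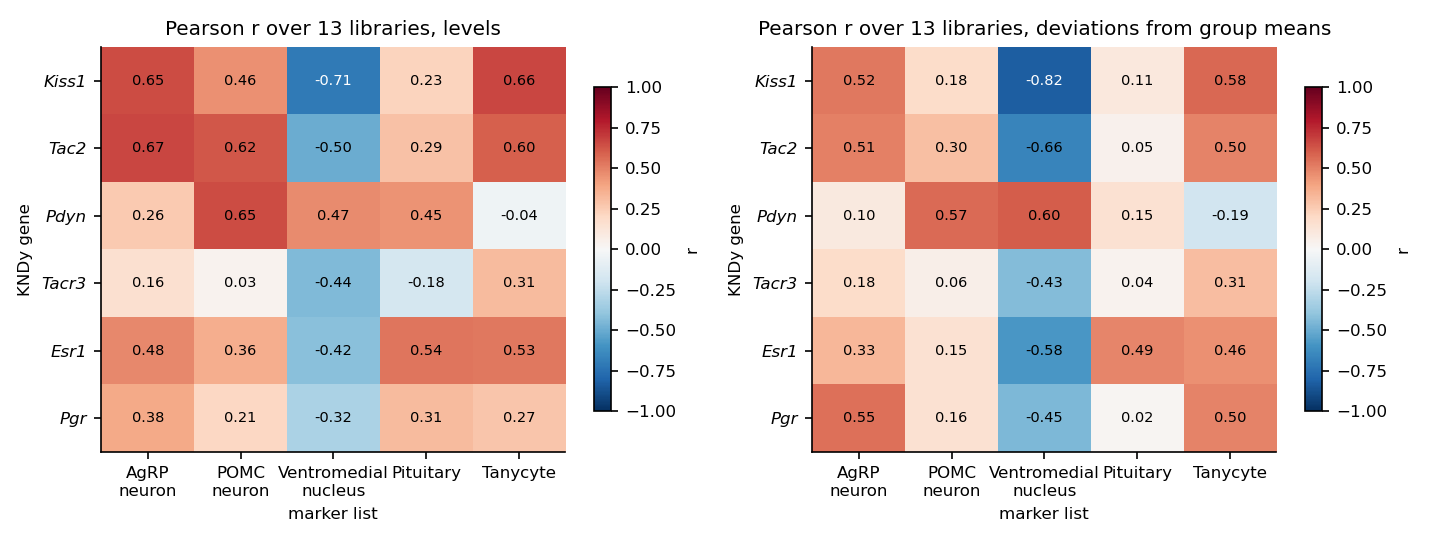
Pearson's r over 13 libraries between each KNDy gene and the mean log2(CPM + 1) of the markers in each of 5 lists. Panels show levels (left) and deviations from the group means (right). Kiss1 with ventromedial nucleus markers is the strongest relation in both panels, at -0.71 and -0.82.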

How the data were processed

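The authors deposited 1 table of raw read counts per gene and library with the matching RPKM. The submitters' processing notes name mm10 and the tools FastQC, STAR, STAR-Fusion, Subread and edgeR. Per the labels, Trizol extraction preceded library preparation with a SMART-Seq low-input kit. The strand setting and annotation release were not given in the sources used here. Identifiers were matched to GENCODE M21 for coordinates.

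CPM used column totals of 34.7 to 68.2 M, and one floor of 3 counts equals 0.044 to 0.0864 CPM. The test was edgeR 4.0.16 quasi-likelihood (R 4.3.3, limma 3.58.1) with TMM, the default filter, 13 libraries in 1 fit of 4 groups and an additive sex letter, and Benjamini-Hochberg adjustment over 23622 genes. It was tested on simulated data. Residual degrees of freedom were 8. P-values measure the spread between mice. In the titles some mice share a number, whose meaning is not given. Exact permutation tests (scipy 1.17.1) used log2(CPM + 1). Alternatives were RLE size factors, DESeq2 1.42.0, limma voom, no filter, no sex term, fewer groups, a pseudocount of 0.1 and leaving out libraries. Tests of F against M within diets and groups, pairs without the libraries in doubt, and marker relations were added after seeing the data. The members and gene lists were chosen with earlier results of these data known. Named genes are the 6 members, the 3 most similar genes for each, and per list up to 3 genes by p for genotype and 2 for sex letter, predicted genes left out. One gene that this rule names is not reported here.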

Additional observations from a re-analysis of the deposited data

Results flagged for a closer look

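Pgr in the HFD controls had a library far from the others. Control_HFD replicate 4 held 13.8 CPM, while the other 3 libraries held 19.1, 19.2 and 19.8 CPM. The gap between this library and its nearest neighbour was 0.888 of the whole range of the group, past Dixon's limit for 4 values at the 95% level. Chance alone passes this limit in about 1 in 20 groups. The same library had the highest Esr1, 82.6 CPM.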

How the results depend on the processing

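The count of members called was 0 of 6 in all 136 recomputed comparisons, with RLE, DESeq2, limma voom, no filter, no sex term, fewer groups or libraries left out. Of 816 recomputed member log2 fold changes, 768 kept their sign and side of the threshold and 48 changed sign, all of them uncalled. For the genotype effect on HFD, Tacr3 was at 0.032 without the sex term and 0.092 without both libraries in doubt. Over both diets Tacr3 was at 0.017 with voom, 0.16 without the sex term and 0.050 without both, and Esr1 at 0.0145 with voom and 0.23 without the sex term. Without both libraries, Esr1 on chow was at -0.25, Kiss1 for HFD in controls at -0.30, the interactions of Kiss1 and Tacr3 at 0.23 and 0.085, and the exact-test differences at -0.15 for Kiss1 and -0.035 for Pgr (HFD in controls) and 0.026 for Pdyn (F against M). The cause was not tested. With 1 library left out, values that changed sign ranged as follows. For KO against control on HFD, Kiss1 ran from -0.48 to 0.89, Tac2 from -0.16 to 0.74 and Tacr3 from -0.21 to 0.11. On chow, Pdyn ran from -0.080 to 0.31, Tacr3 from -0.10 to 0.20 and Esr1 from -0.18 to 0.60. Over both diets Tacr3 ran from -0.093 to 0.10 and Esr1 from -0.32 to 0.11. For HFD in controls Kiss1 ran from -0.16 to 1.39, Pdyn from -0.0021 to 0.43 and the exact-test difference of Pgr from -0.0021 to 0.026. For HFD in KO Kiss1 ran from -0.86 to 0.25, Tac2 from -0.34 to 0.44 and Esr1 from -0.32 to 0.20. The interaction ran from -1.54 to 0.081 for Kiss1 and from -0.29 to 0.045 for Tacr3. Over all genes DESeq2 called 344 for genotype on chow, 52 over both diets, 46 and 8 for HFD in controls and KO, 6 for the interaction and 23 for F against M, where edgeR called 0. Every library held at least 78 counts of Kiss1, and the effect of depth on these comparisons was not tested.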

Other observations

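Of 10 coregulators of steroid receptors, 10 were tested and 0 passed the edgeR threshold. Ncoa2, a coactivator, had a log2 fold change of -0.18 ± 0.08 (SE) for KO against control over both diets, and Nrip1, which restrains estrogen receptor activity, had -0.20 ± 0.08 for F against M. Of 10 genes reported to act upstream of Kiss1 at puberty, 10 were tested and 0 passed. Kmt2d, a histone methyltransferase, had -0.15 ± 0.06, Dlk1 had 0.42 ± 0.23 and Mkrn3, a brake on puberty in humans and mice, had 0.36 ± 0.21 for genotype. The median of this list was -0.06 for genotype and -0.012 for F against M.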
